A study of Mus musculus with 4 samples.

Results

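The Z-disc is the plate that bounds each sarcomere, the contractile unit of striated muscle, and it anchors actin filaments of opposite polarity. Alpha-actinins form its cross-links, titin and other long proteins run into it, and a layer of adaptor proteins ties it to signalling and to the membrane. Of the sarcomeric alpha-actinins 2 and 3, alpha-actinin 3 is the form typical of fast fibres. Described here are 10 Z-disc genes out of 53647 genes in the count tables: the sarcomeric alpha-actinins Actn2 and Actn3, the PDZ-LIM adaptors Ldb3 and Pdlim3, the LIM protein gene Csrp3, the calsarcins Myoz1, Myoz2 and Myoz3, the titin cap gene Tcap and the myotilin gene Myot. They were chosen by name as main structural and adaptor proteins of the Z-disc, with earlier results of these data known. Each was found in the tables by its Ensembl identifier. All 10 passed the filter on low counts.

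Bulk RNA sequencing compared wild-type (WT) mouse primary myotubes given recombinant EDA-A2 with control myotubes (Control), in 2 libraries per condition. EDA-A2 is an ectodysplasin isoform of the tumour necrosis factor family that binds the receptor EDA2R, and the comparison asks which transcripts change when this receptor is activated. Myoblasts came from limb muscle of pups aged 2 to 3 days. They were differentiated, in horse serum, for 48 h before EDA-A2 was added at 250 ng/mL for 24 h, and cells were harvested 72 h after differentiation began, which makes these cultures a model of young myotubes rather than of adult fibres. The labels do not say what the controls received in place of EDA-A2, nor whether the 2 libraries of a condition came from separate cultures, so p-values measure only the spread between these libraries, which may be technical.

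Between 29444155 and 29746863 read pairs were counted on genes per library, and the 10 genes took 0.266% and 0.281% of them in Control against 0.226% and 0.222% after EDA-A2 (95% Wilson intervals 0.264 to 0.268, 0.279 to 0.282, 0.224 to 0.227 and 0.221 to 0.224, counting error only). The labelled cell type was checked on 10 markers of differentiated myotubes, all of which passed the filter on low counts, among them Myog (34036 normalized counts in Control on average), Mymk (14494) and Myh3 (235226). Over all genes tested (15173), 371 were called higher after EDA-A2 and 323 lower. A gene was called where the p-value of the edgeR quasi-likelihood test, adjusted by Benjamini-Hochberg over all of them, was under 0.05. The share of calls that were higher was 53.5%, and it was 71.4% when libraries were scaled by total counts (485 higher, 194 lower) and 74.4% without a filter on low counts (64 higher, 22 lower). Fewer genes were called when any 1 library was left out, and fewest without a Control library. Such a fit has 1 residual degree of freedom, and the cause of the lost calls was not tested. The median log2 fold change of the 10 genes ranged from -0.22 to -0.15 over these fits, against -0.20 with all 4 libraries.

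Values are given as normalized counts, that is, counts scaled to the mean library size after TMM normalization, with the 2 libraries of a condition named in the order of their replicate numbers. Of the 10 genes, 1 was called higher (Actn3) and 3 lower (Actn2, Csrp3, Pdlim3), against 2.45% higher, 2.13% lower and 4.57% in either direction among all genes tested. Among the 5688 genes whose mean reached 1000 normalized counts, which include 8 of the 10, the shares were 3.04% higher and 3.82% lower. The median log2 fold change of the 10 genes was -0.20, and that of all genes tested was -0.00. In 5 genes both EDA-A2 libraries lay below both Control libraries, a pattern found in 22.2% of all genes tested, and in 3 genes both lay above, found in 22.8%. Only Tcap and Myoz3 had overlapping conditions. In a bulk sample, fewer cells of a type and less RNA per cell cannot be told apart.

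**Figure D1:**
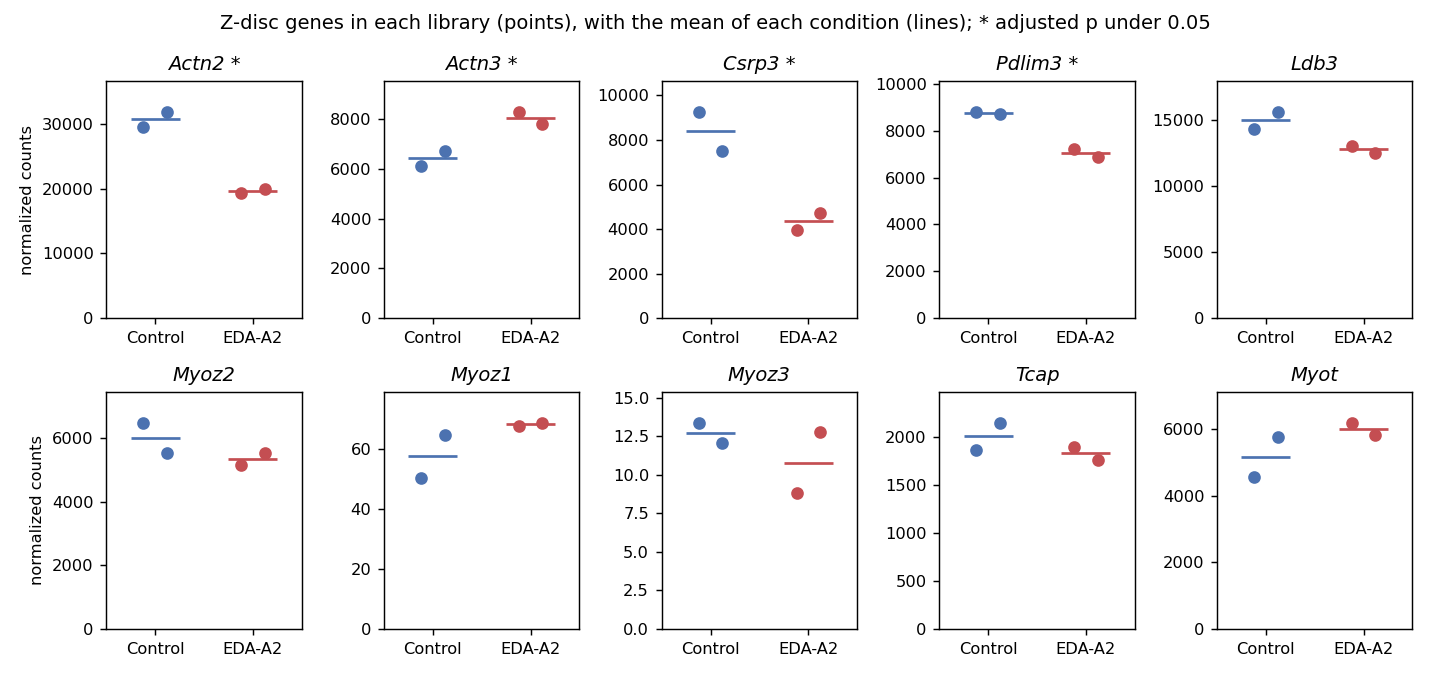
Normalized counts (y axis, from 0, its own scale in each panel) of the 10 Z-disc genes in the 2 Control libraries (blue) and the 2 EDA-A2 libraries (red). Points are libraries, lines are condition means, and an asterisk marks an adjusted p under 0.05. Actn2, Csrp3 and Pdlim3 lie lower after EDA-A2, Actn3 lies higher, and the conditions of Tcap and Myoz3 overlap.

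Actn2 and Actn3 encode paralogous proteins that cross-link actin at the same place, so the first question is whether reads of one could be counted for the other. Their coding sequences, 2766 and 2709 bases long in the GENCODE transcripts of GRCm39, were 75.3% identical over 2685 aligned bases. The longest identical run was 51 bases, shorter than a read of 100 bases. No window of 100 bases in an Actn2 transcript occurred in a transcript of any other gene, and of the Actn3 windows 5.86% occurred in Ctsf, described with Actn3, and in no alpha-actinin. The most alike stretch of 120 bases is shown because it is where the pair is hardest to tell apart, and capitals mark the 14 positions at which they differ:
Actn2 (coding bases 64 to 183): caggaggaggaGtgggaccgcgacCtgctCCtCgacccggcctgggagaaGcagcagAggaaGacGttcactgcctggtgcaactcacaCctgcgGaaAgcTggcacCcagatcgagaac
Actn3 (coding bases 82 to 201): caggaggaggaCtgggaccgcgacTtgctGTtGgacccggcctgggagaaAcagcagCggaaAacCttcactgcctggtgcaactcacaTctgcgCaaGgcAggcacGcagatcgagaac

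Actn2 (ENSMUSG00000052374) lies on the reverse strand at chr13:12281303-12356693 of GRCm39. It had 29544 and 31802 normalized counts in Control and 19275 and 19858 after EDA-A2. Both treated libraries were far below both controls, and the gap between conditions was several times the distance between libraries of a condition. The mean fell from 30673 ± 1596 to 19567 ± 412 (SD, n = 2), with a log2 fold change of -0.65 (SE 0.07, edgeR adjusted p = 5.29e-05), which is 1.57-fold lower. Only 1.83% of the genes tested had a lower log2 fold change. The call was lost without Control replicate 1 (log2 fold change -0.70, edgeR adjusted p = 0.137) and without Control replicate 2 (-0.60, edgeR adjusted p = 0.119).

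Actn3 (ENSMUSG00000006457), the fast-fibre alpha-actinin, lies on the reverse strand at chr19:4911215-4928529. Its normalized counts were 6112 and 6720 in Control and 8278 and 7811 after EDA-A2. The conditions did not overlap, and the treated libraries stood above the controls. It rose from 6416 ± 430 to 8044 ± 330 (SD, n = 2), with a log2 fold change of 0.33 (SE 0.07, edgeR adjusted p = 0.0149). Its call was not kept without Control replicate 1 (0.26, edgeR adjusted p = 0.253), without Control replicate 2 (0.39, edgeR adjusted p = 0.144), without EDA-A2 replicate 1 (0.28, edgeR adjusted p = 0.192) or without the filter on low counts (0.32, edgeR adjusted p = 0.190). The exons of Actn3 overlap those of Ctsf, a cathepsin gene on the opposite strand, over 1355 of 5052 bases, and the strand option of the counting is not given in the sources used here. Ctsf itself had 9 and 14 counts in Control and 11 and 13 after EDA-A2, with a log2 fold change of 0.01 (SE 0.47, edgeR adjusted p = 0.996).

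The opposite directions of the pair showed in the ratio within each library, in which library size and scaling cancel. Actn3 had 20.7 and 21.1 counts per 100 counts of Actn2 in Control, and 42.9 and 39.3 after EDA-A2. Per length of merged exons (RPKM), Actn3 stood at 0.442 and 0.452 of the Actn2 level in Control and at 0.918 and 0.841 after EDA-A2. The length of Actn3 includes the bases shared with Ctsf. Whether pairs there were counted for Actn3 is not known, so its level per length may be too low in both conditions. The shares and the order of levels given below carry the same limit. The log2 ratio of Actn3 to Actn2 rose by 0.98, against SDs of 0.02 and 0.09 within Control and EDA-A2. An exact two-sided permutation test gave p = 0.333, the smallest value that 2 against 2 libraries allow. Leaving out any library kept the difference between 0.91 and 1.04.

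Actn1 and Actn4 encode the non-muscle alpha-actinins, which cross-link actin at adhesions and stress fibres. Actn4 had 13016 and 13419 normalized counts in Control and 11070 and 10655 after EDA-A2, and was called lower with a log2 fold change of -0.28 (SE 0.07, edgeR adjusted p = 0.0235). Leaving out any 1 library ended the Actn4 call (edgeR adjusted p = 0.214 and 0.183 without Control replicate 1 and 2, 0.132 and 0.257 without EDA-A2 replicate 1 and 2), as did total counts (0.0693) and the lack of a filter (0.132). Actn1 had 6234 and 5718 in Control and 5925 and 5802 after EDA-A2, with overlapping conditions and a log2 fold change of -0.03 (SE 0.07, edgeR adjusted p = 0.913). The sign of the Actn1 value turned when libraries were scaled by total counts (0.03). As a share of the RPKM of the 4 genes, Actn2 went from 44.5% ± 0.774 to 33.6% ± 1.16 and Actn3 from 19.9% ± 0.645 to 29.5% ± 0.817 (SD, n = 2). The share of Actn4 was 24.1% ± 0.316 in Control and 23.5% ± 0.320 after EDA-A2, and that of Actn1 11.5% ± 1.10 and 13.4% ± 0.0195. The direction of the Actn4 share depended on the length used: its difference was -0.65 percentage points per merged exons, 0.0011 per longest transcript and 1.01 without length. Per merged exons, each of these 4 differences had an exact two-sided permutation p of 0.333, the smallest possible.

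**Figure D2:**
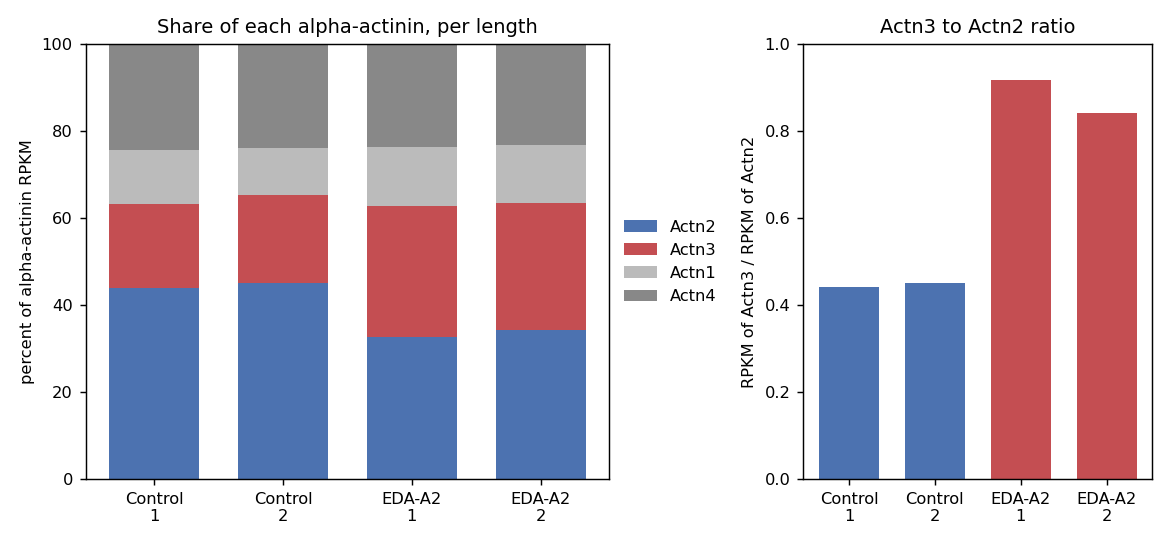
Left, the percent of the summed RPKM of the 4 alpha-actinin genes taken by each gene (y axis) in each library. Right, the RPKM of Actn3 divided by that of Actn2 (y axis, from 0) in each library. The Actn3 share is 19.4% and 20.3% in Control and 30.1% and 29.0% after EDA-A2, and the ratio is higher in both EDA-A2 libraries.

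Csrp3 (ENSMUSG00000030470, reverse strand, chr7:48480142-48497901) encodes muscle LIM protein, an adaptor at the Z-disc that also acts in the nucleus. Normalized counts were 9257 and 7517 in Control and 3968 and 4718 after EDA-A2. Both conditions showed a wide gap between their libraries, yet the higher treated library was well below the lower control. The mean went from 8387 ± 1231 to 4343 ± 531 (SD, n = 2), the steepest fall among the 10 genes, with a log2 fold change of -0.95 (SE 0.10, edgeR adjusted p = 3.76e-05). Only 0.646% of the genes tested had a lower log2 fold change. The call was lost without Control replicate 1 (-0.79, edgeR adjusted p = 0.186), without Control replicate 2 (-1.09, edgeR adjusted p = 0.119) and without the filter on low counts (-0.95, edgeR adjusted p = 0.0660).

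Pdlim3 (ENSMUSG00000031636, forward strand, chr8:46338398-46372689) encodes ALP, a PDZ-LIM protein that binds alpha-actinin 2. It had 8800 and 8693 normalized counts in Control and 7234 and 6872 after EDA-A2. The libraries of each condition lay close together and the conditions did not overlap. It fell from 8747 ± 75.3 to 7053 ± 256 (SD, n = 2), with a log2 fold change of -0.31 (SE 0.07, edgeR adjusted p = 0.0126). Leaving out any 1 library ended the call, with log2 fold changes of -0.35 to -0.27: the edgeR adjusted p was 0.219 without Control replicate 1, 0.166 without Control replicate 2, 0.0607 without EDA-A2 replicate 1 and 0.192 without EDA-A2 replicate 2. Without the filter on low counts it was 0.117.

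Ldb3 (reverse strand, chr14:34248056-34312351) encodes ZASP, the other PDZ-LIM protein of the set, which ties alpha-actinin to the Z-disc edge. Its normalized counts were 14346 and 15605 in Control and 13036 and 12527 after EDA-A2. The treated libraries were the lower ones without overlap, but the difference did not pass the test: the log2 fold change was -0.23 (SE 0.07, 95% interval -0.38 to -0.08, edgeR adjusted p = 0.0861).

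The calsarcins bind alpha-actinin, filamin C, ZASP and the phosphatase calcineurin. Myoz2 (reverse strand, chr3:122797610-122828664), the calsarcin of slow fibres and heart, had 6476 and 5533 normalized counts in Control and 5158 and 5530 after EDA-A2. The second library of each condition had almost the same value. Its log2 fold change was -0.17 (SE 0.08, 95% interval -0.34 to 0.00, edgeR adjusted p = 0.328), and it was -0.053 without Control replicate 1 and -0.28 without Control replicate 2. Myoz1 (reverse strand, chr14:20697005-20706608), the fast-fibre calsarcin, had only 50.5 and 64.5 normalized counts in Control and 67.6 and 68.8 after EDA-A2. Its log2 fold change of 0.24 (SE 0.24, 95% interval -0.27 to 0.76, edgeR adjusted p = 0.718) leaves a change of either sign possible at this depth, and it was 0.077 without Control replicate 1 and 0.43 without Control replicate 2. Myoz3, the third calsarcin, had 13 and 12 raw counts in Control and 9 and 13 after EDA-A2, and its log2 fold change was -0.24 (SE 0.46, 95% interval -1.23 to 0.76, edgeR adjusted p = 0.884), with values from -0.52 without EDA-A2 replicate 2 to 0.0038 without EDA-A2 replicate 1. Per length, Myoz2 made up 98.1% ± 0.432 of the calsarcin level in Control and 97.7% ± 0.00176 after EDA-A2 (SD, n = 2), so that these myotubes held almost no Myoz1 and Myoz3 transcript in either condition.

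Tcap (forward strand, chr11:98274637-98275779) encodes telethonin, which caps the titin end inside the Z-disc. It had 1863 and 2144 normalized counts in Control and 1889 and 1760 after EDA-A2. The conditions overlapped, and the log2 fold change was -0.14 (SE 0.08, 95% interval -0.31 to 0.04, edgeR adjusted p = 0.488). The Tcap value was -0.23 without Control replicate 1 and -0.033 without Control replicate 2. Leaving out EDA-A2 replicate 2 gave -0.085. Myot encodes myotilin, which binds alpha-actinin and filamin C and bundles actin. Its normalized counts were 4552 and 5749 in Control and 6184 and 5799 after EDA-A2, so that the lower treated library stood just above the higher control. The log2 fold change was 0.22 (SE 0.09, 95% interval 0.02 to 0.41, edgeR adjusted p = 0.248), and it was 0.39 without Control replicate 2 and 0.057 without Control replicate 1.

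**Figure D3:**
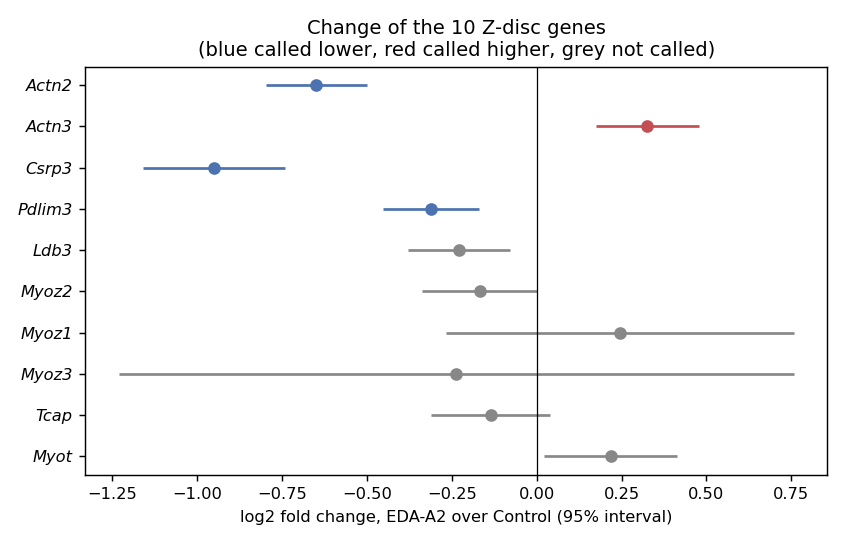
Log2 fold change (x axis, EDA-A2 over Control) of the 10 Z-disc genes (y axis), with the 95% interval of the fit across all genes as a line. Blue genes were called lower, red higher and grey not called. Csrp3 lies farthest to the left at -0.95, Actn3 is the only called gene to the right of 0, and the intervals of Myoz1 and Myoz3 are the widest.

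The order of levels among the 10 genes, in RPKM per length of merged exons, shifted with these changes. In Control it ran from Actn2 (96.0 ± 4.99) through Csrp3 (72.9 ± 10.7), Tcap (71.4 ± 7.09), Pdlim3 (55.2 ± 0.476), Ldb3 (48.7 ± 2.89), Actn3 (42.9 ± 2.88), Myoz2 (27.2 ± 3.02) and Myot (25.0 ± 4.11) down to Myoz1 (0.415 ± 0.0716) and Myoz3 (0.101 ± 0.00721; all SD, n = 2). Neighbours whose libraries overlapped were Csrp3 and Tcap, and Myoz2 and Myot. After EDA-A2 it ran from Tcap (65.1 ± 3.24) through Actn2 (61.2 ± 1.29), Actn3 (53.8 ± 2.21), Pdlim3 (44.5 ± 1.62), Ldb3 (41.6 ± 1.17), Csrp3 (37.7 ± 4.61), Myot (29.1 ± 1.32) and Myoz2 (24.3 ± 1.19) to Myoz1 (0.492 ± 0.00592) and Myoz3 (0.0852 ± 0.0221), with overlap only between Ldb3 and Csrp3. Csrp3 thus moved from the second to the sixth place and Actn3 from the sixth to the third. With the length of the longest transcript in place of merged exons Csrp3 made the same move and Actn3 went from the seventh to the third place, but Actn2 remained first after EDA-A2, at 102 ± 2.14 RPKM, and Ldb3 to Csrp3 overlapped step by step.

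The genes whose pattern over the 4 libraries was most like that of Actn2, by Euclidean distance of log2 CPM centred on the Control mean among 4235 protein-coding genes, were Cryab (distance 0.0899), Glul (0.0922), Tspan13 (0.126) and Myh3 (0.149). Their log2 fold changes lay between -0.71 and -0.57. Those most like Actn3 were Epb41l2 (distance 0.0358), Cp (0.0404), Plekho2 (0.0437) and Ablim1 (0.0571), with log2 fold changes between 0.32 and 0.36. Cryab encodes the small heat shock protein alpha-B crystallin that binds desmin and titin, Myh3 the embryonic myosin and Ablim1 an actin-binding LIM protein. Whether muscle genes are more frequent among these neighbours than among all genes compared was not tested.

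The promoters of the called genes are shown because the 3 genes called lower all have RefSeq sequence in the table used. Of the 10 genes, 5 matched the RefSeq table of mouse promoters on GRCm38.p6 (Actn2, Csrp3, Ldb3, Myoz2 and Pdlim3, with 7 start sites), each 250 bases before to 50 after a gene start, and Actn3, Myoz1, Myoz3, Tcap and Myot did not. These coordinates are of GRCm38.p6 and differ from those of GRCm39 above. Capitals mark matches on either strand. The E-box was taken as any CANNTG, a pattern that includes sites of MyoD and myogenin and also sites of other factors. The other motifs are the M-CAT element CATTCC (bound by TEAD factors), the MEF2 site, the CArG box and the kappaB site:
Actn2 (chr13:12340683-12340982, reverse strand): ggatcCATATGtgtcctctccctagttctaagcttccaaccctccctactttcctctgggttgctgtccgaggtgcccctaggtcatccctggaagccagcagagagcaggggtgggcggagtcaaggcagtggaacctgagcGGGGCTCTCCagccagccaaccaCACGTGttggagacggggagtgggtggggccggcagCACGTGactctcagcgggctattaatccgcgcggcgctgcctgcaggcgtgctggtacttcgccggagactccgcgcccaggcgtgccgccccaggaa
Csrp3 (chr7:48848002-48848301, reverse strand, the first of 2 starts): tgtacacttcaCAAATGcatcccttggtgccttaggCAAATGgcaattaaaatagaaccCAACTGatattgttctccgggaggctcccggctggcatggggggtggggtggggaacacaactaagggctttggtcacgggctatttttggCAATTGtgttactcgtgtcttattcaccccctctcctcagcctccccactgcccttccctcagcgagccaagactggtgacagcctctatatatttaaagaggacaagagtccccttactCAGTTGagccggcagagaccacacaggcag
Pdlim3 (chr8:45885237-45885536, forward strand): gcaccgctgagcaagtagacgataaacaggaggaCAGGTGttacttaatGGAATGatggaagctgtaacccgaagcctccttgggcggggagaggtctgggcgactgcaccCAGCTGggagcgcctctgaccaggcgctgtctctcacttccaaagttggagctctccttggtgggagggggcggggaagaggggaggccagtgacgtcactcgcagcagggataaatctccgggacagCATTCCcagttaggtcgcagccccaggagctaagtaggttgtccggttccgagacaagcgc
Myoz2, not called (chr3:123034938-123035237, reverse strand): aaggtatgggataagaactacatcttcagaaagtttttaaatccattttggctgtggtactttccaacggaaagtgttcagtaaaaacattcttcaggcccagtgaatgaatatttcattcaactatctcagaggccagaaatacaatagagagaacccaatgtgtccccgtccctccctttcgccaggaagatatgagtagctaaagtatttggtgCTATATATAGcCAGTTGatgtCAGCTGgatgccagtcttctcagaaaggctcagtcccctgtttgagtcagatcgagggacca

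Actn2 held 3 E-boxes and 1 kappaB match, Csrp3 5 E-boxes at this start and 4 at the other, Pdlim3 2 E-boxes and 2 M-CAT matches, and Myoz2 2 E-boxes and 1 MEF2 match. Both Ldb3 starts held no E-box and 1 CArG match, which is the same site because the sequences around the 2 starts overlap. No printed match overlapped another. These letters are common: of 32851 promoters of the same length 72.3% held an E-box, 14.7% an M-CAT element, 4.51% a kappaB match, 3.19% a MEF2 match and 1.63% a CArG match. A match is a description of the sequence and not of binding.

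Around the 10 genes, a broad list of 41 further genes was examined, here called other Z-disc genes, and all 41 were tested. It was chosen with earlier results of these data known. Not all of its genes are particular to the Z-disc: Actn1 and Actn4, for example, encode the non-muscle alpha-actinins. Of the 41 genes, 3 were called higher and 11 lower, against 2.45% and 2.13% of all genes tested, and 27 were not called. The list's median log2 fold change was -0.13, and 33 of its genes had a value below 0. Fhl1, a LIM protein gene, had the lowest value at -0.81 (SE 0.08, edgeR adjusted p = 2.24e-05), with 9029 and 8654 normalized counts in Control and 4646 and 5444 after EDA-A2. Xirp1, an actin-binding repeat protein, fell by 0.74 on the log2 scale and Cryab by 0.64. Flnc, the muscle filamin that binds calsarcins and myotilin, fell by 0.55 from 46727 and 37199 to 28926 and 28394 normalized counts. Smpx and Lmod2, the latter an actin filament nucleator, fell by 0.40 and 0.35. The remaining lower genes included Actn4, given above.

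The 3 genes that rose were Synpo2, Trim63 and Synm. Synpo2, an alpha-actinin and filamin binding protein also called myopodin, had 4459 and 4141 normalized counts in Control and 8514 and 8243 after EDA-A2, with a log2 fold change of 0.96 (SE 0.07, edgeR adjusted p = 7.60e-07). Trim63, the ubiquitin ligase MuRF1 that is used as a marker of muscle atrophy, went from 2014 and 2070 to 3449 and 3794, a log2 fold change of 0.83 (SE 0.07, edgeR adjusted p = 7.62e-06). Synm, an intermediate filament protein that links to alpha-actinin and desmin, went from 302 and 362 to 549 and 538, a log2 fold change of 0.71 (SE 0.11, edgeR adjusted p = 0.00165). In these 3 genes both treated libraries stood above both controls with a wide gap. Without Control replicate 1 or 2 none of the 41 genes was called by edgeR, while 17 and 16 of them were lower and 4 and 3 higher at an unadjusted p under 0.05. Without EDA-A2 replicate 1 or 2, 6 and 5 were called lower. With total counts 6 were called lower, and without the filter 2.

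**Figure D4:**
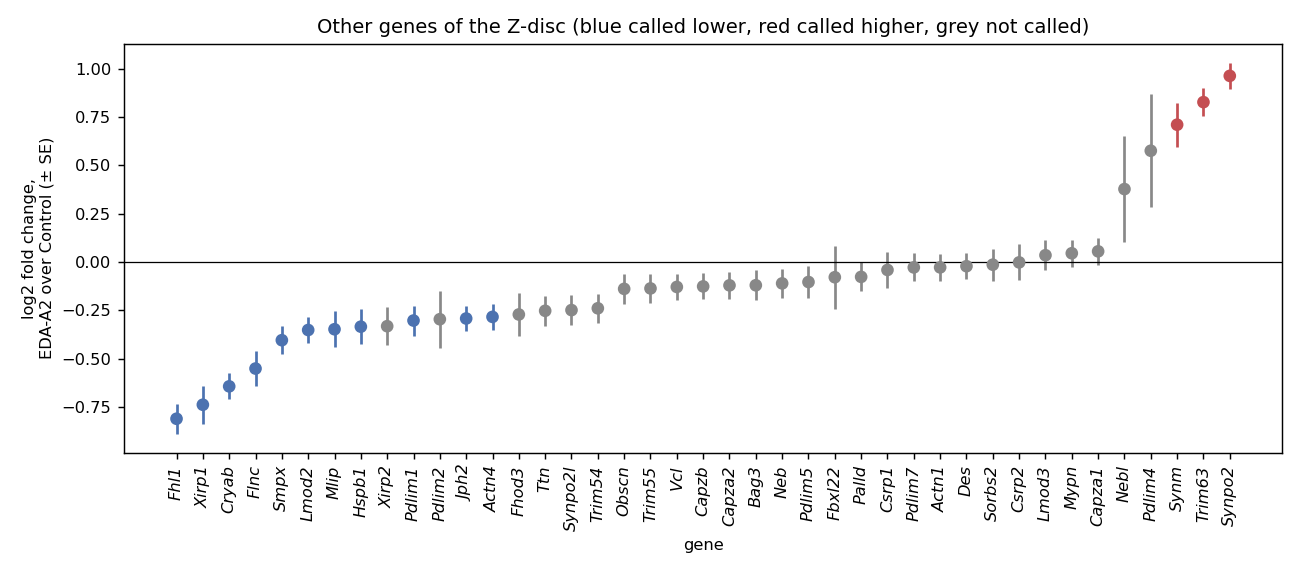
Log2 fold change (y axis, EDA-A2 over Control, with the SE as a line) of the 41 genes in the broad list of other Z-disc genes (x axis), in order of value. Blue genes were called lower (11), red higher (3) and grey not called (27). Most values lie below 0, Fhl1 is lowest at -0.81, and the 3 highest values are those of Synm, Trim63 and Synpo2, next to Pdlim4 at 0.58, which was not called.

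Calcineurin, which calsarcins hold at the Z-disc, dephosphorylates NFAT factors. None of the 12 tested genes of 13 in the calcineurin list was called by edgeR or DESeq2, and 1 was higher at an unadjusted p under 0.05 under either tool. Over all genes tested 4.57% were called and 7.61% were higher at that unadjusted p by edgeR, so a list of this size would hold few calls at the background share. The gene at that p, the calcium channel gene Itpr1, had a log2 fold change of 0.26 (SE 0.09, edgeR adjusted p = 0.128). The list's median was 0.03. Rcan1, a feedback inhibitor whose transcript responds to calcineurin, had 741 and 792 normalized counts in Control and 699 and 731 after EDA-A2, and it is named after its value was seen.

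Actn3 and Myoz1 are typical of fast fibres and Myoz2 of slow ones, so the contractile genes of both fibre types were set beside them. Of 13 fast-fibre genes, 4 were called lower and 0 higher by edgeR and by DESeq2, with 1 higher at an unadjusted p under 0.05 under either tool. Over all genes tested, 2.13% were called lower and 2.45% higher, and 7.61% were higher at that unadjusted p by edgeR. Mylpf, a fast myosin light chain, fell by 0.48 on the log2 scale, Tnnc2, fast troponin C, by 0.40, Tnni2, fast troponin I, by 0.31 and Myl1, an alkali light chain, by 0.26. Of 10 slow-fibre genes tested, 3 were called lower and 0 higher, beside the same 2.13% and 2.45% of all genes, and none was higher at an unadjusted p under 0.05 by edgeR or DESeq2. DESeq2 called 6 of them lower. Myh7, the slow myosin, had 36729 and 27438 normalized counts in Control and 18405 and 16878 after EDA-A2, and its log2 fold change was -0.86 (SE 0.11, edgeR adjusted p = 1.69e-04). Tnni1, slow troponin I, fell by 0.43 and Myh6 by 1.32, the latter from a mean of only 76.0 normalized counts. The list medians were -0.19 for fast and -0.29 for slow genes. Of the 13 fast genes 9 had a log2 fold change below 0 and 4 above, and all 10 slow genes lay below 0. The fast gene that was higher at an unadjusted p under 0.05 by edgeR was Casq1, at 0.19 (SE 0.07, edgeR adjusted p = 0.169). Thus Actn3 was called higher while no gene of the fast contractile list was called higher, though the list was mixed in sign. Without Control replicate 1 or 2 no gene of either list was called by edgeR, although 4 and 6 fast and 7 and 7 slow genes were lower at an unadjusted p under 0.05. The numbers of fast genes called lower were 1 without the filter on low counts, 2 with at least 10 counts in every library and 2 with total counts, when 1 was called higher. No slow gene was called lower without the filter.

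Markers of the cultures' state moved in part. Beside them, 2.45% of all genes tested were called higher and 2.13% lower by edgeR. At an unadjusted p under 0.05 the edgeR shares of all genes were 7.61% higher and 8.03% lower. Of 10 differentiation markers, Myh3 (-0.57), Myh8 (-0.38) and Acta1 (-0.52) were called lower and Mymx, the fusion peptide myomixer, higher (1.22, edgeR adjusted p = 2.95e-08). The summed level of the list was 703426 and 673544 normalized counts in Control and 515215 and 517646 after EDA-A2. Most of it was Myh3 (mean 235226 in Control, 158140 after EDA-A2) and Acta1 (179987 and 125653). Of 7 myoblast and satellite cell markers tested, Vcam1 was called higher (0.53) and Cdh15 lower (-0.47). The log2 fold change was above 0 in 4 of the 7 and below 0 in 3. The summed level was 35785 and 35392 in Control and 39529 and 39755 after EDA-A2. Most of that sum was Itga7 (mean 19681 in Control, 22987 after EDA-A2) and Sdc4 (9512 and 10847), neither of them called. The sum therefore does not speak for the list as a whole. No marker of dividing cells was called or passed an unadjusted p of 0.05, by edgeR or DESeq2 (5 tested, summed levels 20541 and 24360 against 22790 and 22354). None of the 8 tested fibroblast markers was called by edgeR or DESeq2, with 1 higher and 1 lower at an unadjusted p under 0.05 by edgeR and 0 by DESeq2. Their summed levels were 57966 and 60140 against 55483 and 56711, mostly Col3a1 (mean 43031 in Control, 41991 after EDA-A2), and Lum and Thy1 were at 0. Of 4 smooth muscle markers tested, Tagln was called lower by edgeR (-0.43) and not by DESeq2, and the summed levels were 20405 and 24001 against 26152 and 24447. Most of that smooth muscle sum was Acta2 (mean 17452 in Control, 20453 after EDA-A2), which was not called by edgeR. Of 6 cardiomyocyte markers, Nppa and Myl7 were at 0 in every library, and Nppb and Ryr2 had at most 1 count. The 2 that were tested were Myh6, called lower (-1.32), and Tnni3, with a log2 fold change of -0.74 that was not called, and the summed levels of the list were 113 and 129 normalized counts in Control and 57.8 and 59.0 after EDA-A2. Endothelial and macrophage markers summed to at most 36.3 and 371 normalized counts. Only 1 of 5 endothelial and 2 of 5 macrophage markers were tested, and none of those was called or passed an unadjusted p of 0.05 by edgeR or DESeq2. Without Control replicate 1 no gene of the 8 marker lists was called by edgeR, with 4 higher and 11 lower at an unadjusted p under 0.05, and without Control replicate 2 the 1 gene called was Mymx. The part of these cells in the changes of the Z-disc genes was not tested.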

How the data were processed

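The 4 libraries hold polyadenylated RNA of mouse primary myotubes, prepared with a stranded kit and sequenced as pairs of 100-base reads. Per the labels and the methods of the study, the authors checked reads with FastQC 0.11.9 and MultiQC 1.12, trimmed them with Trim Galore 0.6.5, mapped them to GRCm39 with STAR 2.7.3a and counted pairs per gene with HTSeq 0.11.1. The values the authors deposited are raw counts for each Ensembl gene and library, unfiltered. The annotation release and the strand option are not given in the sources used here, and GENCODE names matched 52610 of 53647 genes. HTSeq's summary lines, 12.2% to 13.0% of pairs, were left out.

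Counts were fitted in R 4.3.3 with edgeR 4.0.16 (quasi-likelihood functions glmQLFit, not robust, and glmQLFTest; TMM; filterByExpr at a minimum count of 10 and minimum total of 15; condition as the only term), since the study names no test for these libraries. P-values were adjusted over all 15173 genes tested (Benjamini-Hochberg, threshold 0.05). Dividing a log2 fold change by the square root of its F statistic gave the SE. RPKM used the merged exon length of all transcripts of a gene. Ratios and shares were compared with exact permutation tests over libraries. Where no read was counted, up to 3 counts are possible, which is 0.101 to 0.102 CPM at this depth.

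The genes and lists were chosen with earlier results of these data known. The text names all 10 genes, Actn1 and Actn4, and up to 6 called genes per direction of the other Z-disc list with the smallest p-values. It names up to 4 genes of each further list, and more in the fast-fibre, differentiation and cardiomyocyte lists. The 4 genes nearest to Actn2 and to Actn3 with a mean of at least 50 CPM are named too. Results were recomputed with scaling by total counts, by upper quartiles or by the size factors of DESeq2, with all genes of 1 count or more, with genes of at least 10 counts per library throughout, with the Wald test of DESeq2 1.42.0, with a replicate block, on protein-coding genes only, with other gene lengths, and without each library. The steps were tested on simulated counts. Promoters came from RefSeq on GRCm38.p6. Sequences and positions on chromosome 18 (Myot, Myoz3) are not reported here.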

Additional observations from a re-analysis of the deposited data

How the results depend on the processing

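Leaving out 1 library leaves 3, with 1 residual degree of freedom, and the lone library is then assumed to vary like the other condition. Over these 4 fits the whole table had 7 to 223 genes called higher and 0 to 193 lower, the Z-disc genes 0 to 1 higher and 0 to 2 lower, the other Z-disc genes 0 to 3 higher and 0 to 6 lower, the fast-fibre genes 0 to 4 lower, the slow-fibre genes 0 to 4 lower, and the markers 0 to 2 higher and 0 to 6 lower. The median log2 fold change ranged from -0.22 to -0.15 for the Z-disc genes, -0.18 to -0.12 for the other Z-disc genes, 0.011 to 0.072 for the calcineurin genes, -0.25 to -0.11 for the fast-fibre genes and -0.38 to -0.27 for the slow-fibre genes. The log2 fold change ranged from -0.70 to -0.60 for Actn2, 0.26 to 0.39 for Actn3, -1.09 to -0.79 for Csrp3 and -0.35 to -0.27 for Pdlim3. It changed sign for Myoz3 (-0.52 to 0.0038, the latter without EDA-A2 replicate 1) and for Actn1 (-0.091 to 0.034, the latter without Control replicate 1).

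Without a filter, 25545 genes were tested and 64 were called higher and 22 lower, among them 0 of the Z-disc genes higher and 1 lower (Actn2), 2 other Z-disc genes lower, 1 fast-fibre and 0 slow-fibre genes lower, and 1 marker in each direction. Actn3 (0.32), Csrp3 (-0.95) and Pdlim3 (-0.32) kept their direction and lost the call. Total counts, which moved the median of all genes to 0.05, gave 194 genes lower, 6 other Z-disc genes lower, 1 fast-fibre gene higher and 2 lower, 4 markers higher, medians of -0.14 (Z-disc), -0.071 (other Z-disc) and 0.088 (calcineurin), and 0.028 for Actn1. With at least 10 counts in every library, which drops Myoz3, 2 fast-fibre genes were lower and the Z-disc median was -0.17. DESeq2 called 6 slow-fibre genes lower. The replicate block gave 537 genes higher and 529 lower, with 7 slow-fibre genes lower. It changed no call among the 10 Z-disc genes. The labels do not say whether same-numbered libraries belong together. Deviations of same-numbered libraries correlated at 0.083 over genes, which cannot settle this with 2 libraries per condition. The gain of the Actn3 share was 8.34 percentage points with the longest transcript and 6.75 without length, against 9.65, and the Actn4 share moved by 0.0011 and 1.01 points, against -0.65. The causes of these shifts were not tested. Actn2 kept its call under all 8 alternatives that use every library, Actn3, Csrp3 and Pdlim3 under 7 of 8, and the other 6 genes were called under none.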
